A study of Mus musculus with 9 samples.

Results

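The granule genes of mast cells, basophils and eosinophils were followed in sorted granulocyte-monocyte progenitors (GMPs) of 2 mouse leukaemias and of normal marrow. The 10 genes are Cma1, Cpa3, Mcpt4, Mcpt8, Prss34, Tpsab1, Tpsb2, Prg2, Prg3 and Epx. They were taken by symbol from the probe annotation, and all 10 were measured, each by 1 probe, among 21872 genes in all.

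The arrays are single-colour Agilent mouse expression arrays, and a value is a log2 intensity, so a difference of 1 is a 2-fold difference of intensity. The LeuB group (AE3) and the LeuA group (AE1) hold GMPs of C57BL/6 recipients 1 month after transplantation of spleen cells from moribund leukaemic mice of genotype Tet2-/-:AE, 1 leukaemia per group. The WT group holds GMPs of C57BL/6 recipients given WT bone marrow, also 1 month after transplantation. AE stands for the fusion of AML1 (Runx1) with ETO (Runx1t1), and Tet2 encodes an enzyme that oxidizes 5-methylcytosine in DNA. In all 3 groups the cells were gated as Lin-, cKit+, Sca1-, CD16/32+ and CD150-, and each group has 3 arrays described as biological replicates. Each leukaemia traces back to a single primary mouse, so p-values cover the spread among its arrays and not among leukaemias. Donor organ differed too, spleen for the leukaemias and marrow for WT, and the labels leave the number of recipients per array unstated. One label field of the LeuB arrays reads LeuA, and their titles and sources, which read LeuB, were followed.

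Mast cells, basophils and eosinophils store preformed proteins in granules and release them when the cells are triggered. Mast cell granules hold chymases, tryptases and carboxypeptidase A3 bound to the proteoglycan serglycin. Basophils of the mouse carry the proteases Mcpt8 and Prss34, and eosinophil granules carry a peroxidase and the major basic proteins. The chymase-type genes lie side by side in one locus and the tryptase genes in another. GMPs are best known as the source of neutrophils and monocytes, and precursors of mast cells, basophils and eosinophils arise near them in the progenitor hierarchy.

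Several arrays stood apart before any comparison was made. LeuB 1 shared a slide with the LeuA and WT arrays, whereas LeuB 2 and LeuB 3 lay on a second slide with none of the other 7 arrays. A value of LeuB with slide as a block is therefore that of LeuB 1 alone and so slide and the arrays LeuB 2 and LeuB 3 cannot be told apart. On WT 2, 26 genes, Mcpt4 among them, were higher by at least 4 than on both other WT arrays, which lay within 1 of each other, and by the same measure there were 0 such genes on WT 1 and 4 on WT 3. LeuA 2 and LeuA 3 had 9 each, LeuA 1 had 2, LeuB 2 had 1, and LeuB 1 and LeuB 3 had 0. At a difference of at least 1, LeuA 2 had the most such genes, 180. LeuA 3 had 87, LeuA 1 had 83 and WT 2 had 68. In the other direction, lower by at least 1, LeuA 1 had 49 genes, WT 1 had 41, Prss34 among them, and WT 2 had 6. The labelled cell type was checked against markers. The 8 neutrophil granule and GMP markers averaged 7.37 to 8.70 over the LeuB arrays, 7.75 to 7.89 over the LeuA arrays and 12.70 to 13.83 over the WT arrays. The 6 monocyte markers averaged 6.59 to 7.14 in LeuB, 6.57 to 6.61 in LeuA and 11.63 to 12.25 in WT. Erythroid markers, 6 of 7 measured, averaged 14.47 to 14.53 in LeuB, 14.16 to 14.40 in LeuA and 8.14 to 8.32 in WT. The WT arrays thus carried the transcripts that mark GMPs, and the leukaemic arrays, sorted by the same gate, carried most of them at lower levels. Of the 8, Ltf, Camp and Ngp were not called in LeuB against WT (adjusted p 0.0762 to 0.116). On WT 1 these genes read 7.35, 7.69 and 6.81, below WT 2 and WT 3. On LeuB 3 they read 9.15, 9.03 and 8.46, above WT 1. In sorted populations, fewer cells of a type and less RNA per cell cannot be told apart.

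The 2 basophil proteases and the 3 eosinophil granule genes fell in both leukaemias. The mast cell genes did not move together. Cma1 rose in both leukaemias, Tpsb2 fell in both by small amounts, Cpa3 fell in LeuB, and Mcpt4 and Tpsab1 were not called. In LeuB against WT 1 gene rose and 7 fell at an adjusted p under 0.05, and in LeuA against WT 1 rose and 6 fell. Of all genes, 42.3% were called in LeuB against WT (21.8% higher, 20.4% lower) and 36.8% in LeuA against WT (17.9% higher, 18.9% lower), so a call by itself is common here. The arrays did not overlap between groups for 8 of the 10 genes in LeuB against WT, beside 52.4% of all genes, and for 7 of 10 in LeuA against WT, beside 49.5%. The median difference from WT over the 10 was -1.23 in LeuB and -1.23 in LeuA, against -0.01 and 0.01 over all genes. A call that also had at least a 2-fold difference was made for 6 of the 10 in each leukaemia, beside 13.8% of all genes in LeuB and 13% in LeuA. The plot of all 10 genes by array shows every value behind these counts.

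**Figure D1:**
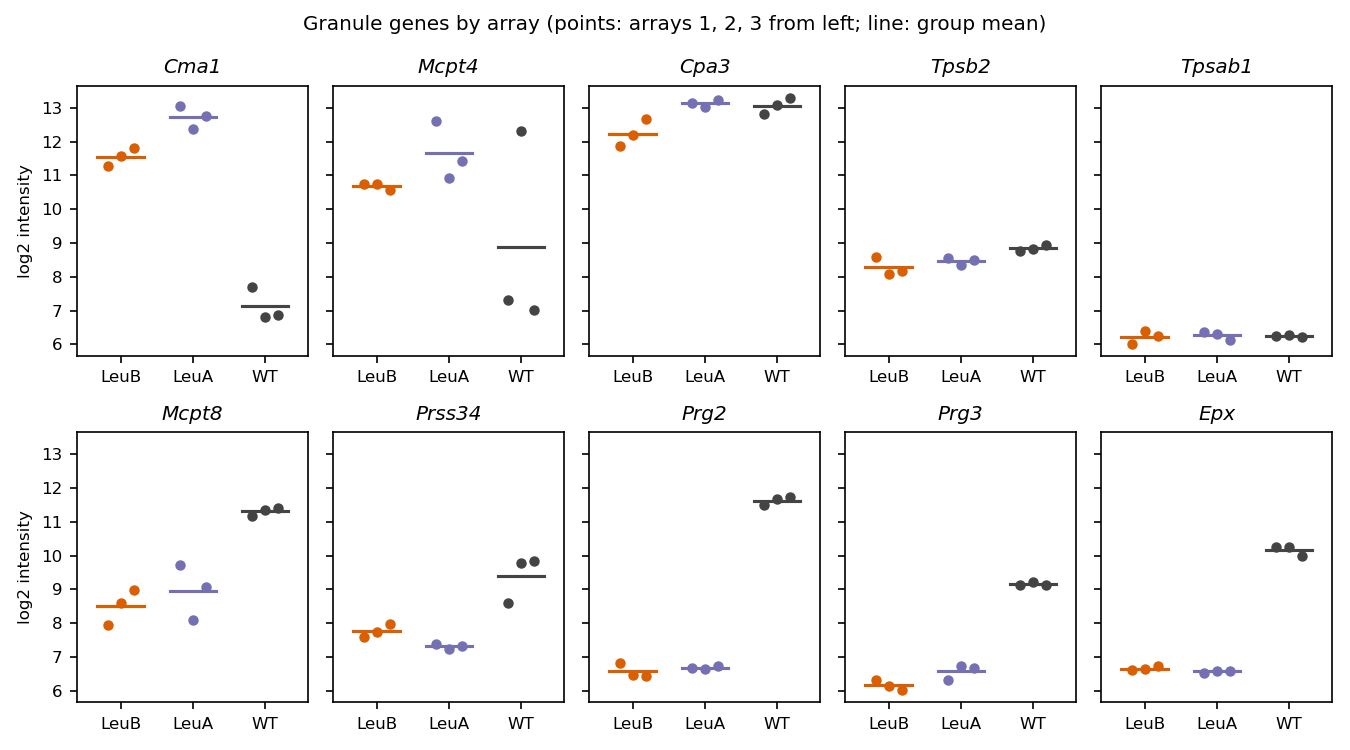
Log2 intensity of the 10 granule genes on each array, with groups LeuB, LeuA and WT from left to right, points for arrays 1, 2 and 3 and a line at the group mean. Cma1 is higher on every leukaemic array than on every WT array, Prg2, Prg3, Epx, Mcpt8 and Prss34 are lower on every leukaemic array, and WT 2 stands alone at 12.30 for Mcpt4.

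Upstream sequence is shown for 5 genes that stand for the different patterns, namely Cma1, which rose, Mcpt4 and Mcpt8, which lie next to each other in the chymase locus, Cpa3, and the eosinophil gene Prg3. Each is the 250 bases before the annotated start, from RefSeq on build GRCm38.p6, read 5′ to 3′ on the gene's strand, with matches to GATA letters in capitals. Entries were held for 7 of the 10 genes, and Tpsab1, Tpsb2 and Prg2 had none.
Cma1 (chr14:55944676-55944925, minus strand): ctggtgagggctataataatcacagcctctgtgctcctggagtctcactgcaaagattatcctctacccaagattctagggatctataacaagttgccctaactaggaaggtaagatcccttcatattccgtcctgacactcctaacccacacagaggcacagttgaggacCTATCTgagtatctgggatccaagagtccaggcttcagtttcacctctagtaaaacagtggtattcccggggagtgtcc
Mcpt4 (chr14:56062311-56062560, minus strand): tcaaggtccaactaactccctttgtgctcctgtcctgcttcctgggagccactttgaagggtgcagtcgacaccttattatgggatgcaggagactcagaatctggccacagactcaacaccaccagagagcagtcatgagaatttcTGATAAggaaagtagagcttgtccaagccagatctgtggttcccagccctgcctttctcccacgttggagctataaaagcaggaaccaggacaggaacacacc
Mcpt8 (chr14:56085198-56085447, minus strand): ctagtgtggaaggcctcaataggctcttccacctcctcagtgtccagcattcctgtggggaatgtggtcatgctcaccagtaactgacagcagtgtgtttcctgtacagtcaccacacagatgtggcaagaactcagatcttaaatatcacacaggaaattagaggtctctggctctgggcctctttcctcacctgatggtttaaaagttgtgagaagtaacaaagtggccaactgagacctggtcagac
Cpa3 (chr3:20242182-20242431, minus strand): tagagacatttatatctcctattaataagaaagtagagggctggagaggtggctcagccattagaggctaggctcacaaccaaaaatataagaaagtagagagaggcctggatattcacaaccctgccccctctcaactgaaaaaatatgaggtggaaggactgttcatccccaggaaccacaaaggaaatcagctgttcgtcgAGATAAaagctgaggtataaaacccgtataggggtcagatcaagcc
Prg3 (chr2:84987965-84988214, plus strand): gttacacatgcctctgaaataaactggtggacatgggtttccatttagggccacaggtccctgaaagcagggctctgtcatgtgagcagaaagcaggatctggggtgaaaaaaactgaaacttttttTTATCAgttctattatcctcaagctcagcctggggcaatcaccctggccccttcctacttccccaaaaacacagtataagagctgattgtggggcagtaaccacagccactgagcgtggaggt
GATA factors 1 and 2 act in the mast cell, basophil and eosinophil lineages, and the letters searched for them were GATAA and GATAG directly after an A or a T, on both strands. They were found upstream of 5 of 7 genes (Cma1, Cpa3, Mcpt4, Prss34 and Prg3), each with 1 match, and in 26.5% of the 32851 windows of the table. The match began 79 bases before the start in Cma1, 103 in Mcpt4, 46 in Cpa3, 31 in Prss34 and 123 in Prg3. The RUNX letters TGTGGT, read by the runt domain that AML1-ETO retains, were found on either strand upstream of Cpa3, Mcpt4, Mcpt8 (2 matches) and Prg3, 4 of 7, and in 14% of all windows. The C/EBP letters TTNNGNAA were found upstream of Prg3, 1 of 7, and in 36.8% of all windows. Epx, the other eosinophil gene with an entry, had 0 matches to each of the 3 motifs, and its window is not shown. Genes that rose and genes that fell both carried GATA matches, and these letter matches are a description of the windows. The windows of the 3 motifs were counted on the same 250 bases, and matches of different motifs did not overlap in the 5 sequences shown.

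Cma1 encodes the mast cell chymase mMCP-5, a serine protease of connective tissue mast cells. Its probe read 11.28, 11.58 and 11.80 on LeuB 1, 2 and 3, 13.04, 12.37 and 12.77 on LeuA 1, 2 and 3, and 7.70, 6.82 and 6.88 on WT 1, 2 and 3. All leukaemic arrays were above all WT arrays, and all LeuB arrays were below all LeuA arrays. Cma1 rose in LeuB by 4.42 (SE 0.26, adjusted p = 5.48e-07), or 21.4-fold. In LeuA it rose by 5.59 (SE 0.26, adjusted p = 1.02e-07), or 48.2-fold. WT lay near the bottom of the scale, where no background level is given, so the folds are ratios of deposited intensities.

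Mcpt4 encodes mMCP-4, the main chymase of connective tissue mast cells by activity. It read 10.74, 10.73 and 10.56 in LeuB, 12.60, 10.91 and 11.43 in LeuA, and 7.31, 12.30 and 7.03 in WT. WT 2 was above every leukaemic array but LeuA 1, and the WT range of 5.27 exceeded that of 99.9% of genes, where the median range in WT was 0.15. With all arrays the difference from WT was 1.80 in LeuB (95% confidence interval -0.89 to 4.49, adjusted p = 0.263) and 2.77 in LeuA (0.08 to 5.46, adjusted p = 0.109), so neither passed the test. Without WT 2 the difference was 3.51 in LeuB (adjusted p = 0.000165) and 4.48 in LeuA (adjusted p = 3.76e-05), and both passed. The call on Mcpt4 thus rests on 1 array.

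Other genes of the chymase locus were read beside it. Mcpt1 and Mcpt2, proteases of mucosal mast cells, are closely related to Mcpt4 in sequence, and whether each probe reads its own transcript alone was not tested. Mcpt1 read 10.81, 10.61 and 10.55 in LeuB, 12.82, 10.59 and 11.39 in LeuA, and 6.51, 6.40 and 6.66 in WT. Mcpt2 read 11.56, 11.25 and 11.10 in LeuB, 12.99, 10.84 and 11.90 in LeuA, and 6.51, 6.22 and 6.25 in WT. Both were therefore low on WT 2, as was Cma1 at 6.82. Within LeuA, Cma1, Mcpt1, Mcpt2 and Mcpt4 had the same order of arrays, highest on LeuA 1 and lowest on LeuA 2. So did Mcpt8, Gzmb, Fcer1a and Cd63, and also Tpsb2, Siglecf, Unc13d, Vamp8, Ndst2, Xbp1 and Cst7, among others. These genes were picked after their values were seen, and the share of all genes with this order was not counted. Mcpt1 rose by 4.14 in LeuB (adjusted p = 4.4e-05) and by 5.08 in LeuA (adjusted p = 1.08e-05), and Mcpt2 rose by 4.98 in LeuB (adjusted p = 9.6e-06) and by 5.58 in LeuA (adjusted p = 4.35e-06). Of the 26 genes that stood out on WT 2, 18 were higher there by at least 4 than on each of the other 8 arrays. The cause of the WT 2 value of Mcpt4 was not tested.

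**Figure D2:**
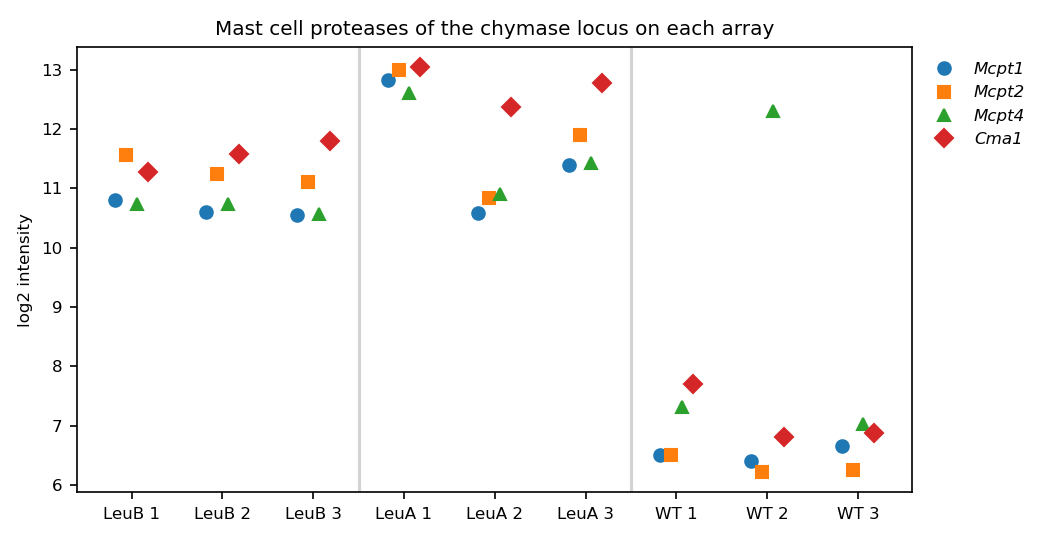
Log2 intensity of Mcpt1, Mcpt2, Mcpt4 and Cma1 on each of the 9 arrays, 1 point per gene and array. The 4 proteases lie between 10.55 and 13.04 on the leukaemic arrays, and on WT 2 Mcpt4 lies at 12.30 while Mcpt1, Mcpt2 and Cma1 lie at 6.40, 6.22 and 6.82.

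Cpa3 encodes carboxypeptidase A3, a metalloprotease found in mast cells from early precursors on. It read 11.86, 12.19 and 12.66 in LeuB, 13.15, 13.03 and 13.24 in LeuA, and 12.80, 13.08 and 13.28 in WT. The LeuB arrays all lay below both other groups, and the LeuA and WT arrays overlapped. Cpa3 fell in LeuB by 0.82 (SE 0.19, adjusted p = 0.00679), a 1.76-fold lower intensity. In LeuA the difference from WT was 0.08 (95% confidence interval -0.35 to 0.52, adjusted p = 0.808). Cpa3 was thus already high in WT, at 12.80 or more on every WT array.

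Tryptases are trypsin-like proteases stored as tetramers in mast cell granules. Tpsb2, which encodes the tryptase mMCP-6, read 8.58, 8.09 and 8.17 in LeuB, 8.54, 8.36 and 8.49 in LeuA, and 8.76, 8.82 and 8.93 in WT. All leukaemic arrays lay below all WT arrays by a small margin. Tpsb2 fell in LeuB by 0.55 (SE 0.12, adjusted p = 0.00527), or 1.47-fold, and in LeuA by 0.38 (SE 0.12, adjusted p = 0.0403), or 1.30-fold. With slide as a block, where LeuB rests on LeuB 1 alone, the LeuB difference was -0.25 and was not called (adjusted p = 0.104). The LeuA call was lost without any 1 of WT 1, WT 2, WT 3, LeuA 1, LeuA 2 or LeuA 3 (-0.41 to -0.32, adjusted p 0.0558 to 0.134).

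Tpsab1, the mMCP-7 gene, is known to lack a functional product in C57BL/6 mice because of a splice-site change, and RefSeq lists it here as a transcribed pseudogene. It read 6.02, 6.40 and 6.25 in LeuB, 6.35, 6.30 and 6.14 in LeuA, and 6.25, 6.27 and 6.22 in WT. The 3 groups overlapped, and all values were close to 6.33 to 6.35, the lower quartile of all probes on the 9 arrays. The difference from WT was -0.03 in LeuB (95% confidence interval -0.25 to 0.20, adjusted p = 0.86) and 0.02 in LeuA (-0.21 to 0.24, adjusted p = 0.937).

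Basophil proteases were lower in both leukaemias. Mcpt8, which encodes the granule protease mMCP-8 and marks basophils in the mouse, read 7.94, 8.61 and 8.97 in LeuB, 9.71, 8.10 and 9.06 in LeuA, and 11.17, 11.36 and 11.42 in WT. All leukaemic arrays were below all WT arrays, and LeuB and LeuA overlapped. Mcpt8 fell by 2.81 in LeuB (SE 0.38, adjusted p = 0.000206), or 7.04-fold, and fell by 2.36 in LeuA (adjusted p = 0.000718), or 5.15-fold. Its spread was wide in the leukaemias, with a range of 1.03 in LeuB, 1.61 in LeuA and 0.25 in WT. Prss34, which encodes mMCP-11, a tryptase-like protease of basophils, read 7.60, 7.74 and 7.99 in LeuB, 7.38, 7.24 and 7.34 in LeuA, and 8.60, 9.79 and 9.84 in WT. WT 1 was lower than the other WT arrays by more than 1 and still above all leukaemic arrays. Prss34 fell by 1.64 in LeuB (SE 0.29, adjusted p = 0.00122) and fell by 2.09 in LeuA (adjusted p = 0.000262), and without WT 1 it fell by 2.04 in LeuB and fell by 2.50 in LeuA.

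Eosinophil granule genes fell in both leukaemias. Prg2 encodes the major basic protein of the eosinophil granule core. It read 6.81, 6.46 and 6.45 in LeuB, 6.69, 6.65 and 6.72 in LeuA, and 11.49, 11.68 and 11.72 in WT. Prg2 fell by 5.05 in LeuB (SE 0.11, adjusted p = 5.64e-10), or 33.2-fold, and fell by 4.94 in LeuA (adjusted p = 6.34e-10), or 30.8-fold. Epx encodes eosinophil peroxidase and lies near the neutrophil peroxidase gene Mpo on chromosome 11. It read 6.61, 6.65 and 6.72 in LeuB, 6.52, 6.60 and 6.60 in LeuA, and 10.26, 10.27 and 9.99 in WT. Epx fell by 3.51 in LeuB (SE 0.08, adjusted p = 1.22e-09), or 11.4-fold, and fell by 3.59 in LeuA (adjusted p = 1.04e-09), or 12.1-fold. Prg3 encodes the major basic protein homologue and is the neighbour of Prg2 on chromosome 2. It read 6.33, 6.15 and 6.03 in LeuB, 6.33, 6.73 and 6.69 in LeuA, and 9.12, 9.22 and 9.12 in WT, and fell by 2.98 in LeuB (SE 0.12, adjusted p = 3e-08) and fell by 2.57 in LeuA (adjusted p = 8.8e-08). The leukaemic values of all 3 genes lay near the lower quartile of all probes, and the file gives no background level, so these are folds of intensity. With slide as a block, where LeuB rests on LeuB 1 alone, Prg2, Prg3 and Epx gave -4.82, -2.82 and -3.56 and Mcpt8 gave -3.38, and all 4 were called.

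**Figure D3:**
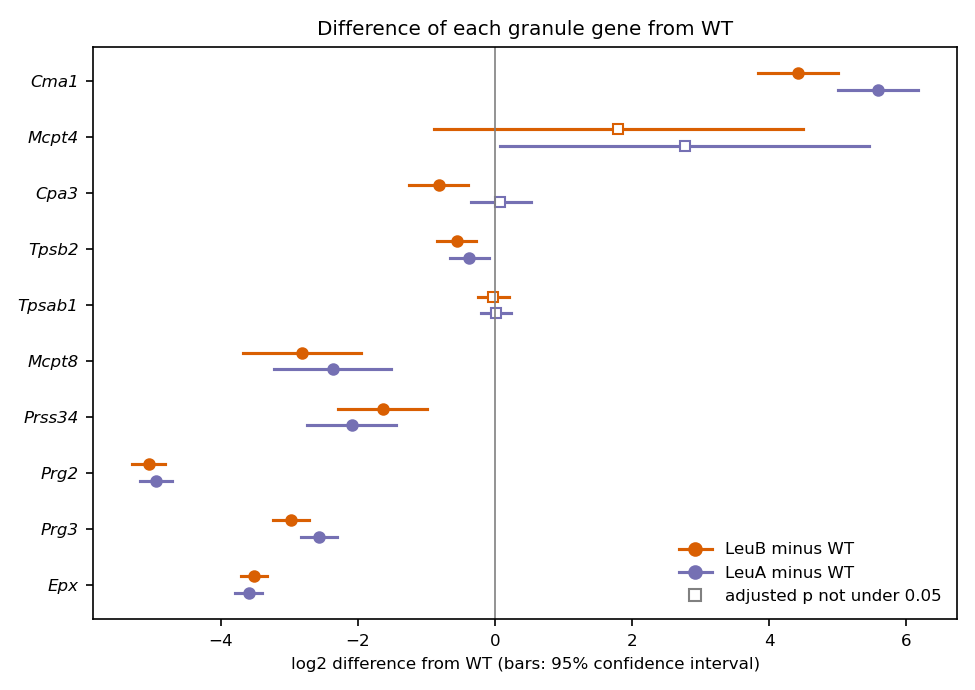
Log2 difference from WT for each of the 10 genes, LeuB above LeuA in each row, with bars for the 95% confidence interval and open squares where the adjusted p was not under 0.05. The interval of Mcpt4 in LeuB runs from -0.89 to 4.49, whereas that of Prg2 runs from -5.29 to -4.81.

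LeuB was set against LeuA to ask where the leukaemias differed from each other. Of the 10 genes 0 rose and 3 fell in LeuB, beside 12.3% of all genes called (6.91% higher, 5.36% lower). Cma1 fell by 1.17 (SE 0.26, adjusted p = 0.019), Cpa3 fell by 0.90 (SE 0.19, adjusted p = 0.0166) and Prg3 fell by 0.41 (SE 0.12, adjusted p = 0.0493). The arrays of LeuB and LeuA did not overlap for 6 of the 10 genes, beside 30.2% of all genes, and those of Prg3 met near 6.33. A call with at least a 2-fold difference was made for 1 of the 10, Cma1, beside 1.72% of all genes. Mcpt8 differed by -0.45 (95% confidence interval -1.30 to 0.40), Prss34 by 0.46 (-0.19 to 1.11), Tpsb2 by -0.18 (-0.46 to 0.10), Prg2 by -0.11 (-0.35 to 0.13) and Epx by 0.09 (-0.10 to 0.28), and none of these passed. Slide moved with this comparison. On slide 1 alone, where LeuB has 1 array, Cma1 gave -1.44 (adjusted p = 0.135), Cpa3 -1.28 and Prg3 -0.25 (adjusted p = 0.554), and 1 of the 10 genes was called, both there and with slide as a block. Without LeuA 3 or LeuB 2 the count was 0, with adjusted p of 0.0599 and 0.0698 for Cma1 and 0.0585 and 0.0701 for Cpa3. Calls over all genes fell too, to 1674 without LeuA 3 and 1380 without LeuB 2, against 2683 with all arrays.

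The order of levels was LeuA, LeuB, WT for Cma1, and the arrays did not overlap at either step. Each step was called, and that between the leukaemias lost its call without LeuA 1, LeuA 3 or LeuB 2 and with slide as a block. For Mcpt8 and Tpsb2 it was WT, LeuA, LeuB, and the step between the leukaemias was not called. For Prss34 and Epx it was WT, LeuB, LeuA, again with no call between the leukaemias. Prg2 followed the order WT, LeuA, LeuB with no call between the leukaemias, and Prg3 had the same order with a narrow call.

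Neighbouring genes of the protease loci differed in direction. The chymase locus on chromosome 14 was read from RefSeq gene order, with 15 measured genes from 3 before Cma1 to 3 after Mcpt8. Cma1, Mcpt1, Mcpt2 and the pseudogene Mcpt-ps1 rose in both leukaemias, whereas Mcpt8 fell in both. The next measured gene, Ctsg, which encodes cathepsin G of neutrophil granules, fell by 10.08 in LeuB (adjusted p = 8.42e-10) and fell by 8.49 in LeuA (adjusted p = 2.24e-09). Mcpt9, between Mcpt2 and Mcpt4, gave -0.03 in LeuB and 0.06 in LeuA and was not called. Cma2, a chymase gene of the same locus, fell by 0.39 in LeuB (adjusted p = 0.0266) and rose by 0.46 in LeuA (adjusted p = 0.013).

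**Figure D4:**
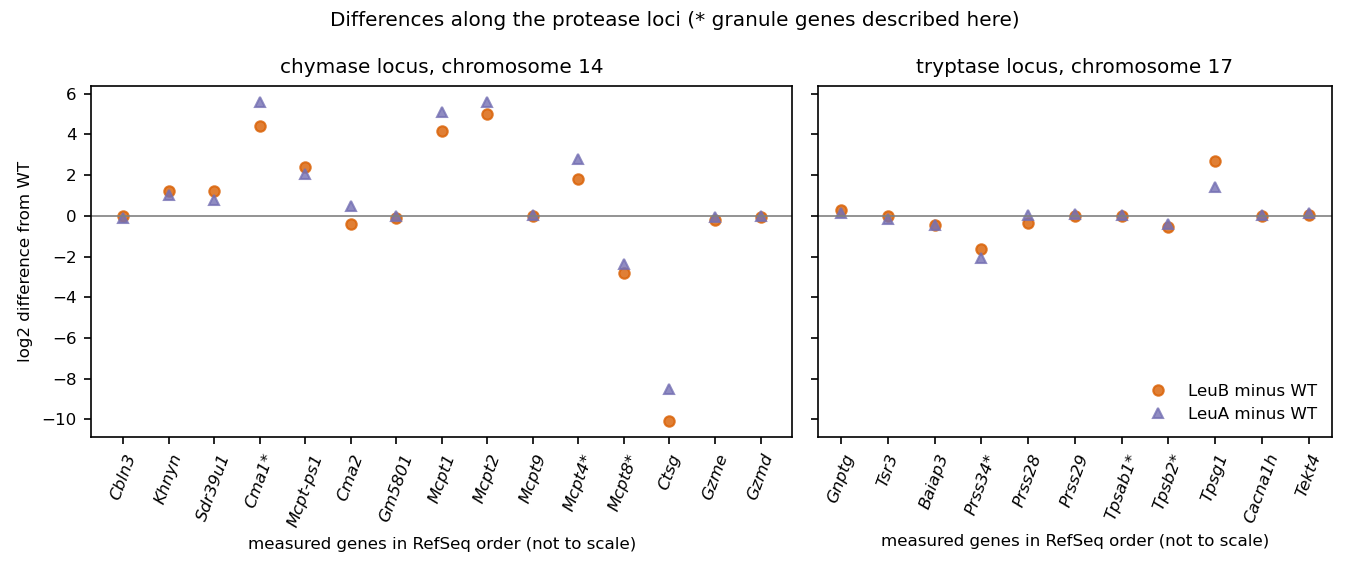
Log2 difference from WT for measured genes in RefSeq order along the chymase locus (chromosome 14) and the tryptase locus (chromosome 17), circles for LeuB and triangles for LeuA, with a star at the granule genes described here. In the chymase locus Cma1, Mcpt1 and Mcpt2 lie above 0 and Mcpt8 and Ctsg below, and in the tryptase locus Prss34 lies below 0 and Tpsg1 above.

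In the tryptase locus on chromosome 17, 11 measured genes were read in the same way. Tpsg1, a membrane-anchored tryptase gene, read 8.80, 8.89 and 10.11 in LeuB, 7.92, 8.16 and 7.85 in LeuA, and 6.80, 6.41 and 6.48 in WT. It rose by 2.70 in LeuB (adjusted p = 6.27e-05) and by 1.41 in LeuA (adjusted p = 0.0046), next to Tpsb2, which fell, and Tpsab1, which was not called. Near Epx, Mpo read 6.46, 7.70 and 8.56 in LeuB, 7.74, 8.09 and 7.87 in LeuA, and 18.24 on every WT array. That WT value is the highest of the whole data set, so Mpo was lower in both leukaemias by an amount these values do not resolve. Mks1, a ciliary gene and the measured neighbour of Epx on the side of Mpo, fell by 2.06 in LeuB (adjusted p = 0.000991) and fell by 2.02 in LeuA (adjusted p = 0.00121). Lpo, the lactoperoxidase gene between Mks1 and Mpo, differed by -0.29 in LeuB (adjusted p = 0.0416) and by -0.14 in LeuA (adjusted p = 0.353). The measured neighbours of Prg2 and Prg3, Slc43a3 and P2rx3, gave 0.49 (adjusted p = 0.0153) and -0.45 (adjusted p = 0.377) in LeuB and -0.24 and -0.24 in LeuA, neither called.

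Other genes of these granules and lineages were counted from lists of 83 genes, of which 76 were measured. Of the 76, 34 rose and 18 fell in LeuB against WT (68.4% called, median 0.15), and 35 rose and 15 fell in LeuA against WT (65.8% called, median 0.13). Of all genes, 42.3% were called in LeuB against WT and 36.8% in LeuA against WT, with medians of -0.01 and 0.01. Of 12 measured proteases of the chymase locus and the granzymes, 2 rose and 3 fell in LeuB and 3 rose and 2 fell in LeuA. The share called was 41.7% in each leukaemia, near that of all genes. Gzmb, the granzyme B gene, fell by 0.91 in LeuB (adjusted p = 0.0364) and fell by 1.54 in LeuA (adjusted p = 0.00257). Of 8 tryptase locus genes, 1 rose and 1 fell in LeuB, and 1 rose and 0 fell in LeuA. The shares called, 25% and 12.5%, were below those of all genes. Of the eosinophil-associated ribonucleases only Ear6 and Ear10 were measured, and Ear10 fell by 0.71 in LeuB (adjusted p = 0.000123) and fell by 0.58 in LeuA (adjusted p = 0.000533).

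Genes for storage, processing and release of granule contents changed in both directions. Of 20 measured, 12 rose and 5 fell in LeuB, and 13 rose and 5 fell in LeuA. The shares called were 85% and 90%, beside 42.3% and 36.8% of all genes. Ndst2, the enzyme that sulphates heparin in mast cell granules, rose by 3.88 in LeuB (adjusted p = 1.3e-09) and by 3.93 in LeuA (adjusted p = 1.19e-09). Rab27b, a small GTPase of granule release, rose by 4.35 in LeuB (adjusted p = 2.25e-09) and by 4.31 in LeuA (adjusted p = 2.27e-09). Cd63, a tetraspanin of granule membranes, read 7.06, 7.38 and 7.65 in LeuB, 11.81, 9.15 and 9.33 in LeuA, and 15.20, 15.15 and 15.14 in WT, and fell by 7.80 in LeuB (adjusted p = 3.48e-06) and fell by 5.06 in LeuA (adjusted p = 7.97e-05). Ctsl, the lysosomal protease cathepsin L, fell by 3.94 in LeuB (adjusted p = 9.69e-09) and fell by 4.27 in LeuA (adjusted p = 5.4e-09). Srgn, the serglycin gene, rose by 0.63 in LeuB (adjusted p = 4.38e-05) and by 0.95 in LeuA (adjusted p = 2.53e-06), and Ctsc, whose product activates granule serine proteases, fell by 3.44 in LeuB (adjusted p = 4.49e-07) and fell by 2.97 in LeuA (adjusted p = 1.3e-06). Srgn and Ctsc were picked after their values were seen.

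Receptor genes also changed in both directions. Of 16 measured receptor genes, 8 rose and 2 fell in LeuB, and 7 rose and 2 fell in LeuA. The shares called were 62.5% and 56.2%, beside 42.3% and 36.8% of all genes. Of the high-affinity IgE receptor, the alpha chain Fcer1a read 12.72, 13.10 and 13.12 in LeuB, 16.08, 15.47 and 15.56 in LeuA, and 8.11, 8.57 and 8.43 in WT, and rose by 4.61 in LeuB (adjusted p = 4.09e-08) and by 7.34 in LeuA (adjusted p = 1.7e-09). Its beta chain Ms4a2 rose by 4.51 in LeuB (adjusted p = 3.73e-09) and by 4.67 in LeuA (adjusted p = 2.77e-09), whereas the shared gamma chain Fcer1g fell by 5.26 in LeuB (adjusted p = 1.52e-08) and fell by 5.21 in LeuA (adjusted p = 1.6e-08). Cd200r3, an activating receptor of mast cells and basophils, rose by 5.75 in LeuB (adjusted p = 5.64e-10) and by 5.53 in LeuA (adjusted p = 6.99e-10). The eosinophil receptor genes Il5ra and Ccr3 were not called in either leukaemia, and Siglecf rose in LeuB by 0.98 (adjusted p = 0.000545). Il5ra differed from WT by 0.39 in LeuB and by 0.29 in LeuA, and Ccr3 by 0.12 in each. Siglecf in LeuA differed by 0.20 (adjusted p = 0.369).

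Of 18 transcription factors of these lineages, 11 rose and 6 fell in LeuB, and 11 rose and 5 fell in LeuA. The shares called were 94.4% and 88.9%, beside 42.3% and 36.8% of all genes. Gata1, which drives eosinophil and mast cell genes as well as erythroid ones, rose by 4.54 in LeuB (adjusted p = 3.29e-08) and by 4.61 in LeuA (adjusted p = 3.01e-08). Cebpe, which eosinophils and neutrophils need to form granules, fell by 7.90 in LeuB (adjusted p = 9.35e-10) and fell by 8.17 in LeuA (adjusted p = 7.56e-10). Cebpa fell by 5.43 in LeuB (adjusted p = 7.87e-10) and fell by 5.28 in LeuA (adjusted p = 8.82e-10), and Irf8, a factor of the monocyte lineage, fell by 7.40 in LeuB (adjusted p = 1.62e-09) and fell by 7.62 in LeuA (adjusted p = 1.4e-09). The list includes erythroid and neutrophil regulators, which also act outside the granule cell lineages.

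**Figure D5:**
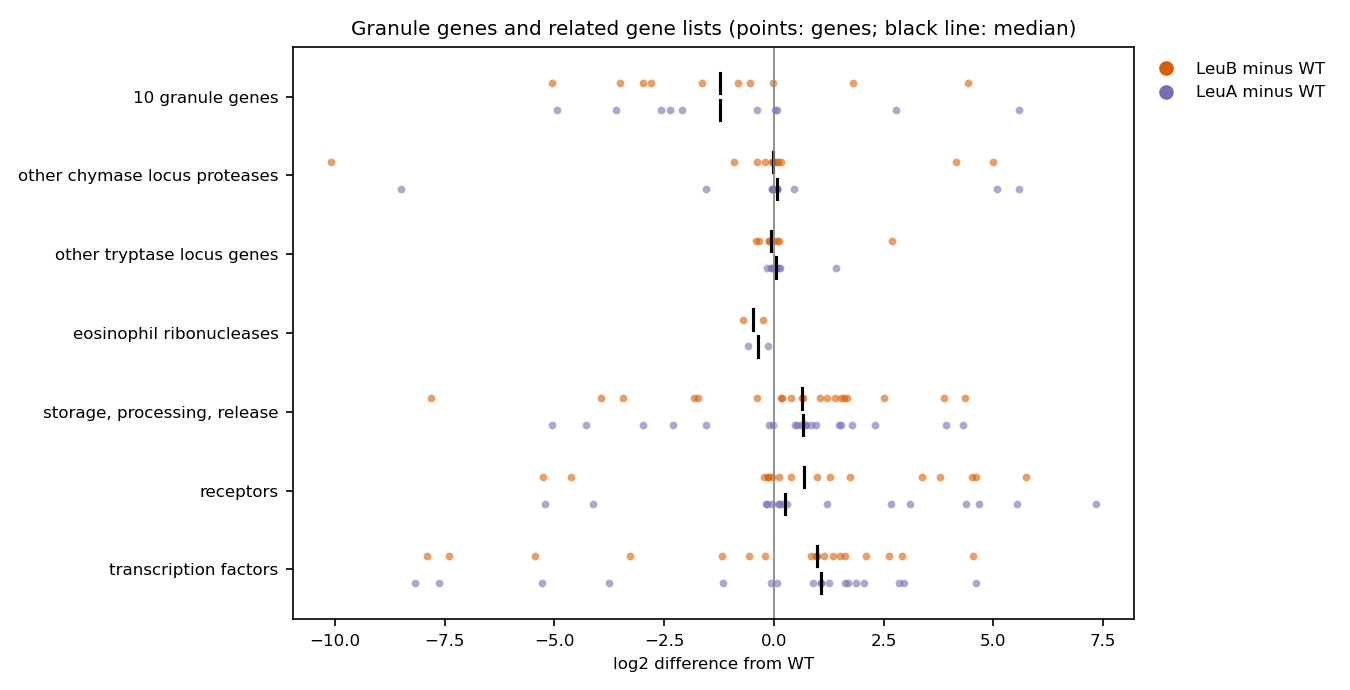
Log2 difference from WT of each measured gene in the 10 granule genes and the 6 related lists, LeuB above LeuA in each row, with a black line at the median. The 10 granule genes have a median of -1.23 in both leukaemias, and the medians of the receptors are 0.68 in LeuB and 0.25 in LeuA.

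Markers of the same cell types that are not among the 10 genes were read beside these results. Mast cell markers, 4 of 5 measured (Kit, Fcer1a, Ms4a2 and Mitf), averaged 11.77 to 11.85 in LeuB, 12.56 to 12.67 in LeuA and 9.09 to 9.32 in WT. Basophil markers, all 5 measured (Fcer1a, Cd200r3, Il4, Gata2 and Itga2), averaged 11.18 to 11.33 in LeuB, 11.65 to 11.90 in LeuA and 7.70 to 7.99 in WT. Of these, Fcer1a, Cd200r3, Il4 and Gata2 rose in both leukaemias, Itga2 was not called (-0.13 in LeuB and -0.16 in LeuA), and the basophil proteases Mcpt8 and Prss34 fell. Of the mast cell markers Fcer1a, Ms4a2 and Mitf rose in both, and Kit was not called (-0.22 in LeuB and -0.17 in LeuA). Fcer1a is in both averages, so these are not separate readings. In LeuB against LeuA it differed by -2.72, and Kit, Ms4a2 and Mitf by -0.05, -0.16 and -0.27. Cd200r3, Il4, Gata2 and Itga2 differed there by 0.22, -0.18, 0.23 and 0.03. Eosinophil markers, 3 of 5 measured (Il5ra, Ccr3 and Siglecf), averaged 8.74 to 8.97 in LeuB, 8.37 to 8.72 in LeuA and 8.31 to 8.41 in WT. The part of other cell types in the granule gene results was not tested.

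Genes most like each of the 10 were sought among 19348 named genes, by the root mean square difference of the 9 values after each gene was centred on its own mean. Closest to Cma1 were Cited4, Kcnj5 and Gml2 (0.303 to 0.309), to Prg2 Meis1, Dio2 and Tes (0.113 to 0.131), to Epx Nfil3, Rps4l and Dock1 (0.088 to 0.1) and to Prg3 Galnt2, Map7d1 and Arrdc4 (0.112 to 0.119). Closest to Prss34 were Pnma2, Ermn and Gab3 (0.0923 to 0.179), to Mcpt8 Ccl6, Gpr171 and Sdr42e1 (0.345 to 0.358), and to Cpa3 Ecm1, Nrip1 and Tnfsf14 (0.202 to 0.222). For Tpsb2 they were Ifnab, Tctn2 and Igsf9b (0.052 to 0.0707), and for Tpsab1, which varied little, Slco1a5, Skint1 and Pdilt (0.0385 to 0.0488). Mcpt4 had no close match, with Sema3f nearest at 1.12, followed by Syne1 at 1.21 and Ddah2 at 1.25. The 9 arrays form 3 groups, so a likeness here is in large part one of 3 group means.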

How the data were processed

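GMPs of the LeuB, LeuA and WT groups were measured on 9 arrays. The deposited values are log2 intensities of 37877 probes. RMA, affy and limma are named in the submitters' processing notes without version or role, and background correction is not given in the sources used here. Array medians lay between 7.02 and 7.04, and the values were used as deposited. Of the probes 24877 had 1 gene symbol, 0 several and 13000 none, and 24606 were matched by gene identifier to RefSeq, which changed 0 symbols. Each of 21872 genes was represented by its probe with the highest mean. No filter was applied. The number of arrays limits the precision.

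Group means of the 3 groups were estimated in 1 fit with limma 3.58.1 in R 4.3.3 (lmFit, eBayes, two-sided), with Benjamini-Hochberg adjustment over all genes and calls at 0.05. On simulated data of 21872 genes for LeuA against WT, 98% of 2-fold changes were recovered, with 10 false calls. The simulation changed 200 genes and drew independent normal noise without slide effects or outlying arrays. It therefore does not give the power for a gene such as Mcpt4. The 10 genes and the lists were chosen with earlier results of these data known. All 10 genes are named, and of each list up to 4 called, non-overlapping genes with the largest mean absolute difference from WT. Genes of the loci were named by position, chosen after values were seen. Replicate numbers were not used to pair arrays in the main fit. Same-numbered arrays correlated between -0.0407 and 0.103 after removal of group means. Among arrays of other groups, 4 of the 9 arrays correlated best with an array of the same number. Whether same-numbered arrays shared a day or batch was not tested. Alternatives changed the probe rule, normalization, filter, floor, slide, replicate block, eBayes options, groups fitted and arrays.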

Additional observations from a re-analysis of the deposited data

Results flagged for a closer look

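Effects against WT of 3 genes differed between the leukaemias by the direct test of LeuB against LeuA, which share the WT arrays. Cma1 differed by -1.17, with 11.56 in LeuB and 12.72 in LeuA. Cpa3 differed by -0.90, with 12.24 in LeuB and 13.14 in LeuA. Prg3 differed by -0.41, with 6.17 in LeuB and 6.58 in LeuA, both near the lower quartile of all probes. No test for an outlying array was made within these groups of 3. With LeuA 3 left out, or with LeuB 2 left out, all 3 calls were lost.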

How the results depend on the processing

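Of 534 recomputed differences of single genes, 490 kept their direction and their side of the threshold, 4 gained a call, 28 lost one and 12 changed sign, all 12 of them differences that were not called. The number of the 10 genes called was 7 to 9 in LeuB against WT and 6 to 7 in LeuA against WT under every alternative except the added 2-fold requirement, which gave 6 in each. In LeuB against LeuA, where 3 were called, the count was 1 with slide as a block, on slide 1 alone and with the 2-fold requirement, and 0 to 4 over the arrays left out. Of the other 76 genes of the lists, 17 were called in LeuB against LeuA, 7 with slide as a block, 6 on slide 1 alone and 10 to 23 over the arrays left out, with 10 without LeuB 2 and 11 without LeuA 3 or LeuB 3. Over all genes the calls in that comparison moved the same way, with 2683 on all arrays, 869 with slide as a block, 581 on slide 1 alone, 1380 without LeuB 2, 1503 without LeuB 3, 1674 without LeuA 3 and 5498 without LeuB 1. With slide as a block LeuB rests on LeuB 1 alone. With the replicate block the calls on the 10 genes numbered 8 in LeuB against WT, 7 in LeuA against WT and 2 in LeuB against LeuA, where Prg3 was lost (adjusted p = 0.0817). Prg3 in that comparison was also lost without any 1 WT array (adjusted p 0.0671 to 0.0795), without LeuA 2, LeuA 3, LeuB 2 or LeuB 3 (0.147 to 0.167), with a floor at the lower quartile (0.17) and with only LeuB and LeuA in the fit (0.108). Tpsb2 in LeuA against WT was lost with the floor too (0.0582). Cma1 in LeuB against LeuA was lost without LeuA 1 (0.0537) and with slide as a block (0.0786). Without WT 1, Prss34 was called in LeuB against LeuA (0.46, adjusted p = 0.0257), and without LeuB 1 so was Tpsb2 (-0.33, adjusted p = 0.0219). Signs changed for Cpa3 in LeuA against WT without WT 1, with -0.0436 to 0.195 over the arrays left out. They changed for Tpsab1 in LeuA against WT without LeuA 1 or LeuA 2 (-0.0279 to 0.0749 over the arrays left out), in LeuB against WT with the floor (0.0221) or without LeuB 1 (-0.113 to 0.0759), and in LeuB against LeuA with the floor (0.0181), without LeuA 1 or without LeuB 1 (-0.128 to 0.0609). With slide as a block and on slide 1 alone, Tpsb2 gave 0.12 and Prg2 0.13 in LeuB against LeuA. The filter on dim genes left out Tpsab1 and Prg3, whose means were below the median of 7.53, so they have no value under it. The cause of these changes was not tested.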
